A study of Mus musculus with 8 samples.

Results

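The genes described here are the secreted products of colon goblet cells together with Sycn, which encodes syncollin. They are the 10 rows of the deposited table of 16130 genes whose symbol is Sycn, Muc2, Fcgbp, Clca1, Zg16, Tff3, Agr2, Spink4, Klk1 or Muc4, and each symbol matched 1 row. The goblet cell products were chosen by function, but with earlier results of these data known. Sycn was added because its counts separated the groups compared below. Its difference between those groups is therefore described without a test.

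Total RNA came from the distal colon of Tcf4Het/+ ApcMin/+ mice. Mice of the EE group (4 libraries) were kept in enriched cages for 4 months, and mice of the NE group (4 libraries) in conventional cages without enrichment for the same time. Both groups therefore carry the ApcMin allele, which truncates the tumour suppressor Apc and gives intestinal adenomas, and a heterozygous Tcf4 allele. The labels give no sex or age, do not say whether a library is 1 animal or a pool, and do not say how much of the tissue was tumour, so p-values measure the spread between these samples.

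Goblet cells fill granules with the gel-forming mucin MUC2 and release it as the mucus that keeps bacteria away from the colon epithelium. Their granules also carry proteins that bind, process or strengthen that gel, among them FCGBP, CLCA1, ZG16 and the trefoil peptide TFF3. Syncollin was described in rat pancreas as a protein of the zymogen granule membrane that takes part in exocytosis, and Zg16 and Klk1 are likewise known products of the exocrine pancreas.

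Of the 10 genes, 5 lie on chromosome 7 of mm10, the build in the submitters' processing notes. Sycn spans 28540885 to 28542209 on the plus strand of that chromosome in GENCODE M21, inside the span of Samd4b on the other strand. Muc2 spans 141690340 to 141754693 and Fcgbp 28071236 to 28120862, both on the plus strand. The library kit preserved strand, but whether counting used it is not given in the sources used here, and Samd4b was not analysed here.

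RefSeq promoter sequences on GRCm38.p6, from 250 bases before to 50 bases after the gene start, matched 6 of the 10 genes (Sycn, Muc2, Fcgbp, Agr2, Klk1 and Muc4). Those of Sycn, Muc2 and Fcgbp are shown because the results turn on how far Sycn moved with the main mucus genes. Capitals mark 4 short motifs searched on both strands: the E-box CAGCTG, the forkhead core TGTTTAC, the TATA box TATAAA and CCACGT, the core of an element of the unfolded protein response. They lie at chr7:28540635-28540934, chr7:141690090-141690389 and chr7:28070986-28071285, all on the plus strand.
Sycn: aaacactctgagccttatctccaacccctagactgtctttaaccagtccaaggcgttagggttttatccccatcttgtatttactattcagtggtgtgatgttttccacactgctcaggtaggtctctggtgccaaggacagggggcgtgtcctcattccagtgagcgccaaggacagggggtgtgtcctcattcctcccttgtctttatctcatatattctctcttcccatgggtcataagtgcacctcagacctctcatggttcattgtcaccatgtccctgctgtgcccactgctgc
Muc2: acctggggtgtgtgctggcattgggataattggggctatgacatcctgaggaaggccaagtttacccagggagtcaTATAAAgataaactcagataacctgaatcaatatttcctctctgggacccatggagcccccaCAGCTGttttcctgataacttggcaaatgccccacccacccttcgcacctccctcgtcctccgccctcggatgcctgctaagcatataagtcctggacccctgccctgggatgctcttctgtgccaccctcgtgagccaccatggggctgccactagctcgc
Fcgbp: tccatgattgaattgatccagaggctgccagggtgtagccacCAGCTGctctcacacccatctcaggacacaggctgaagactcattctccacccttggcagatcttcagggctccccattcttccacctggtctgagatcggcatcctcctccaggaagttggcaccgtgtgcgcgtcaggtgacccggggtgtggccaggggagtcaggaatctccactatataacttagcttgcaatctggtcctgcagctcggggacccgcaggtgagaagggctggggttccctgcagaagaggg
Muc2 and Fcgbp each hold 1 CAGCTG, beginning 112 and 208 bases before the start, and such a match occurs in 16.3% of 32851 promoters of this length. TATAAA was found in Muc2, beginning 174 bases before the start, and in Muc4, beginning 36 bases before it. It occurs in 13.6% of promoters. TGTTTAC (3.65% of promoters) and CCACGT (8.31%) were in none of the 6, and no marked motif overlaps another. The Sycn, Klk1 and Agr2 windows hold none of these letters.

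Library totals ran from 4735764 to 6266902 counts in EE and from 6120185 to 10586851 in NE. Library EE 4 stood apart on the first principal component of the 500 most variable genes, at 46.3 against −14.2 to 6.36 for the other 7. Library EE 2 carried RNA of pancreatic enzymes, described below. In the authors' deposited table the log2 fold change had the opposite sign to EE minus NE for 97.8% of the genes tested here, the 10 genes among them. The header of that table does not name the numerator, so the files do not settle whether it is NE or whether the group labels are turned round. EE and NE below mean the libraries labelled so, fold changes are EE minus NE, and every direction given rests on those labels.

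Sycn stood at 137, 118, 92.2 and 136 CPM (counts scaled to library size) in EE 1 to EE 4, against 239, 272, 254 and 171 CPM in NE 1 to NE 4. Every EE library lay below every NE library, which is what Sycn was chosen for and which 2.02% of all genes tested showed. The lowest NE value, in NE 4, was nearest to EE. The means were 121 ± 21 CPM in EE and 234 ± 43.9 CPM in NE (SD, n = 4 each). The log2 fold change was −0.95, which is 0.516 times the NE level. Leaving out each library in turn gave log2 fold changes between −1.08 and −0.83, with −0.94 without EE 2 and −1.01 without EE 4. Sycn was chosen on these same values, so this range gives no added support. The raw counts behind these values were 610 to 860 in EE and 1033 to 2705 in NE.

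**Figure D1:**
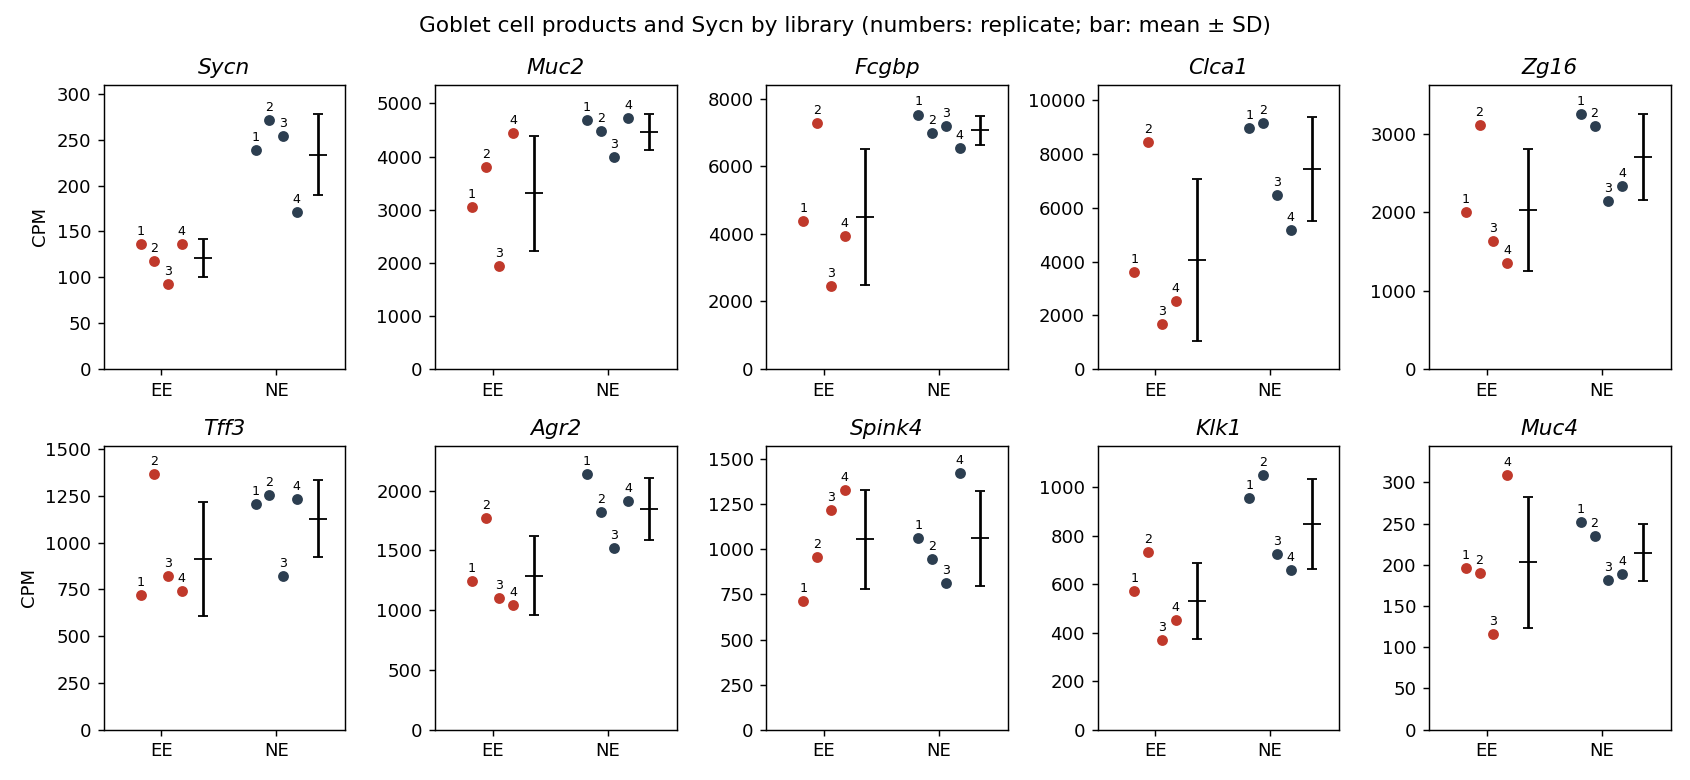
CPM of each of the 10 genes in every library (vertical axes, from 0), with EE in red to the left of NE in dark. Numbers are replicate numbers and bars give the mean ± SD; the EE and NE points of Sycn do not overlap, and EE 2 lies within the NE range for Fcgbp, Clca1, Zg16, Agr2 and Klk1.

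The mucus gel genes stood at lower means in EE, with wide spread. Muc2, the gel-forming mucin, was at 3048, 3799, 1936 and 4446 CPM in EE 1 to EE 4 and at 4680.2, 4472, 3988 and 4734 CPM in NE 1 to NE 4. EE 4 lay inside the NE range and the other 3 EE libraries below it. The log2 fold change of Muc2 was −0.43 (SE 0.24), and −0.24 without EE 3. Fcgbp, the mucus protein that binds the Fc part of IgG, was at 4364, 7271, 2465.5 and 3926 CPM in EE and at 7529, 6987, 7199 and 6529 CPM in NE. Here EE 2 lay among the NE libraries, and the log2 fold change was −0.65 (SE 0.28), and −0.98 without EE 2.

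Clca1, a secreted metalloprotease that processes mucus, varied widely. Its values were 3621, 8439, 1662 and 2541 CPM in EE 1 to EE 4 and 8958, 9145, 6468.5 and 5176 CPM in NE 1 to NE 4. EE 2 stood at the level of NE 1 and NE 2, while EE 3 was the lowest of all libraries. The means of 4066 ± 3023 CPM in EE and 7437 ± 1939 CPM in NE gave a log2 fold change of −0.87 (SE 0.44). Without EE 2 it was −1.51, and without EE 3 it was −0.61.

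Zg16 encodes a lectin that binds the cell wall of Gram-positive bacteria. It was at 2002, 3116, 1629.7 and 1346 CPM in EE and at 3249.8, 3097, 2147 and 2333 CPM in NE, with a log2 fold change of −0.42 (SE 0.26). Tff3, the trefoil peptide of intestinal mucus, was at 721, 1367.5, 821 and 741 CPM in EE and at 1206, 1254, 819 and 1231.5 CPM in NE, with a log2 fold change of −0.30 (SE 0.23). In both genes EE 2 lay with the higher NE libraries. Without EE 2 the log2 fold changes were −0.71 for Zg16 and −0.57 for Tff3. Without EE 4 Zg16 was at −0.27. For Tff3 EE 2 was the highest of all 8 libraries, and NE 3 stood as low as EE 3.

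Agr2, the disulfide isomerase of the endoplasmic reticulum that mucin folding needs, was at 1246, 1771.5, 1102 and 1039.7 CPM in EE and at 2142, 1823, 1517 and 1913 CPM in NE. Again only EE 2 overlapped with NE. The log2 fold change was −0.52 (SE 0.20), and without EE 2 it was −0.71. Klk1, tissue kallikrein, a protease that releases kinins, was at 571, 732, 368 and 449.95 CPM in EE and at 954, 1049.5, 724 and 659.86 CPM in NE. EE 2 lay just above the 2 lowest NE libraries, and the log2 fold change was −0.68 (SE 0.23). Mouse Klk1 has close paralogs (the Klk1b genes), so its reads may be shared with them.

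Spink4 and Muc4 showed small differences against their spread. Spink4, a Kazal-type protease inhibitor of goblet cells, was at 716, 959, 1216 and 1330.2 CPM in EE 1 to EE 4 and at 1062, 948, 811 and 1423 CPM in NE 1 to NE 4. The groups covered the same range, with means of 1055 ± 275 CPM in EE and 1061 ± 262 CPM in NE and a log2 fold change of −0.01 (SE 0.23). Muc4, a membrane-bound mucin that interacts with the receptor ErbB2, was at 196, 189.7, 116 and 309 CPM in EE and at 252, 235, 181 and 189 CPM in NE. EE 4 was the highest library for Muc4 and EE 3 the lowest, and the log2 fold change was −0.08 (SE 0.25). Scaling libraries by epithelial genes, described below, moved the median of all genes to 0.20. Both genes were then above 0, with Spink4 at 0.23 and Muc4 at 0.12, the second still below that median.

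None of the 9 goblet cell products passed the test over all genes. By edgeR's quasi-likelihood test 0 of the 9 had a Benjamini-Hochberg adjusted p under 0.05, beside 0 of 14311 genes tested (0%), and the adjusted p-values of the 9 ran from 0.520 to 0.994. At an unadjusted edgeR p under 0.05 there were 3 of the 9, Fcgbp, Klk1 and Agr2. All 3 were at lower values in EE, beside 3.75% of all genes in that direction. The 9 were chosen with earlier results of these data known, so this count gives no added support. Over all genes 1357 had an unadjusted p under 0.05 by edgeR in either direction (9.48%). DESeq2 called 14 genes over all (0.106%) and limma-voom 0 (0%), and neither called any of the 9. In the authors' deposited table, by contrast, Clca1, Fcgbp and Klk1 had an FDR under 0.05 (2.2e-04, 0.0144 and 0.0161), beside 1.32% of all its genes with an FDR under 0.05 and a positive log2 fold change.

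The 9 had negative log2 fold changes throughout, beside 49.7% of all genes tested, and their median was −0.43 against 0.00 over all genes. The choice of these genes was made with such results known, so the count gives no added support. EE and NE overlapped in all 9, while every EE library lay below every NE library in 2.02% of all genes. Without EE 2 the median was −0.71, and Spink4 then turned positive (0.04). Without EE 4 it was −0.43. In bulk RNA fewer goblet cells and less RNA per goblet cell cannot be told apart.

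**Figure D2:**
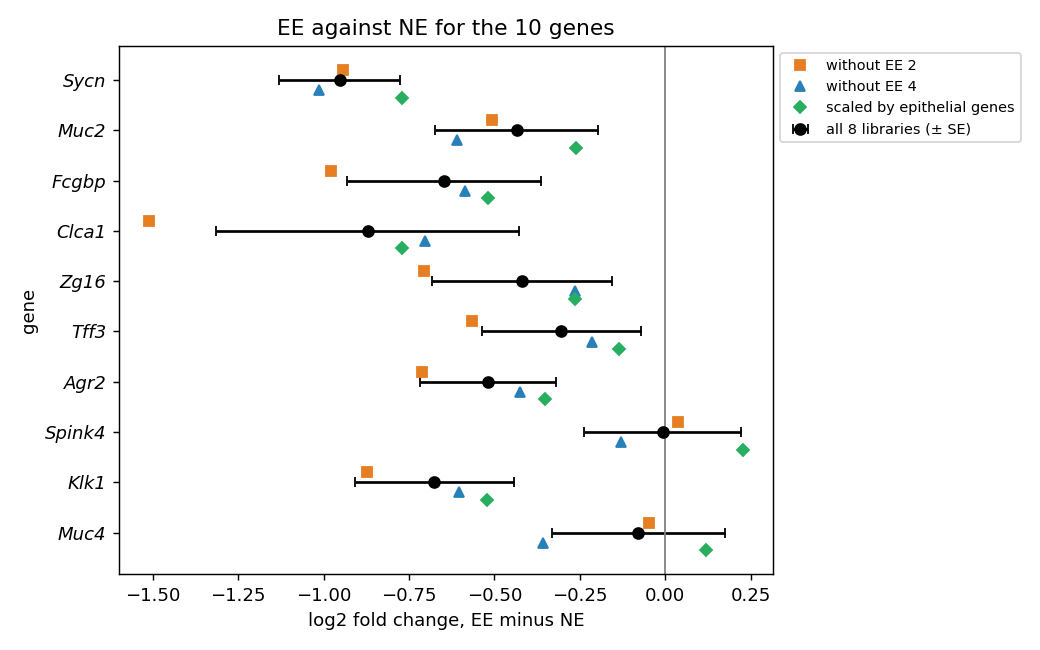
Log2 fold change of each gene, EE minus NE (horizontal axis), with all 8 libraries (black, ± SE), without EE 2, without EE 4, and with libraries scaled by the summed counts of epithelial genes. Sycn lies between −1.01 and −0.77 in all 4, while Clca1 reaches −1.51 without EE 2. Sycn was chosen for its difference, so its SE is not to be read as a test.

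Transcripts common to all colon epithelial cells were read in the same way. Of 14 such genes 0 passed, 11 had negative log2 fold changes and 3 positive ones, beside 49.7% negative over all genes, with a median of −0.13 and summed levels of 11110 to 16834 CPM in EE and 14313 to 18170 CPM in NE. Epcam, the surface protein that marks epithelium, was at 1899 ± 202 CPM in EE and 2012 ± 89.6 CPM in NE (SD, n = 4 each). Cdh1, E-cadherin, was at 1240.2 ± 159 CPM in EE and 1165 ± 89.95 CPM in NE, and Vil1, villin of the brush border, at 498 ± 114 CPM in EE and 554 ± 87.6 CPM in NE. Scaling every library by the summed counts of these 14 genes shifted the median of all genes to 0.20, and the next values are to be read against that shift. On that scale Sycn had a log2 fold change of −0.77 and the 9 products a median of −0.27, with 7 of the 9 below 0 beside 25.6% of all genes. A sum gives most weight to its most abundant gene, here Lgals4, at 3479 ± 1215.5 CPM in EE and 4524 ± 454 CPM in NE. Lgals4 was named after its values were seen. The part of epithelial content in the result was not tested beyond this scaling.

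The products did not move as one block from library to library. EE 2 had 2.22 Clca1 counts per Muc2 count, EE 1 1.19, EE 3 0.859 and EE 4 0.572, against 1.91, 2.04, 1.62 and 1.09 in NE 1 to NE 4. These ratios do not depend on how libraries are scaled. EE 4 combined the Muc2 level of NE with the lowest Zg16 and Agr2 of all libraries, at 0.303 Zg16 and 0.234 Agr2 counts per Muc2 count, against 0.493 to 0.694 and 0.380 to 0.458 in NE. EE 3 had the most Spink4 per Muc2, 0.628, against 0.203 to 0.301 in NE. Sycn per Muc2 was 0.0449, 0.0311, 0.0476 and 0.0307 in EE 1 to EE 4 and 0.0510, 0.0607, 0.0637 and 0.0362 in NE 1 to NE 4, so on this ratio the groups overlapped through NE 4.

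**Figure D3:**
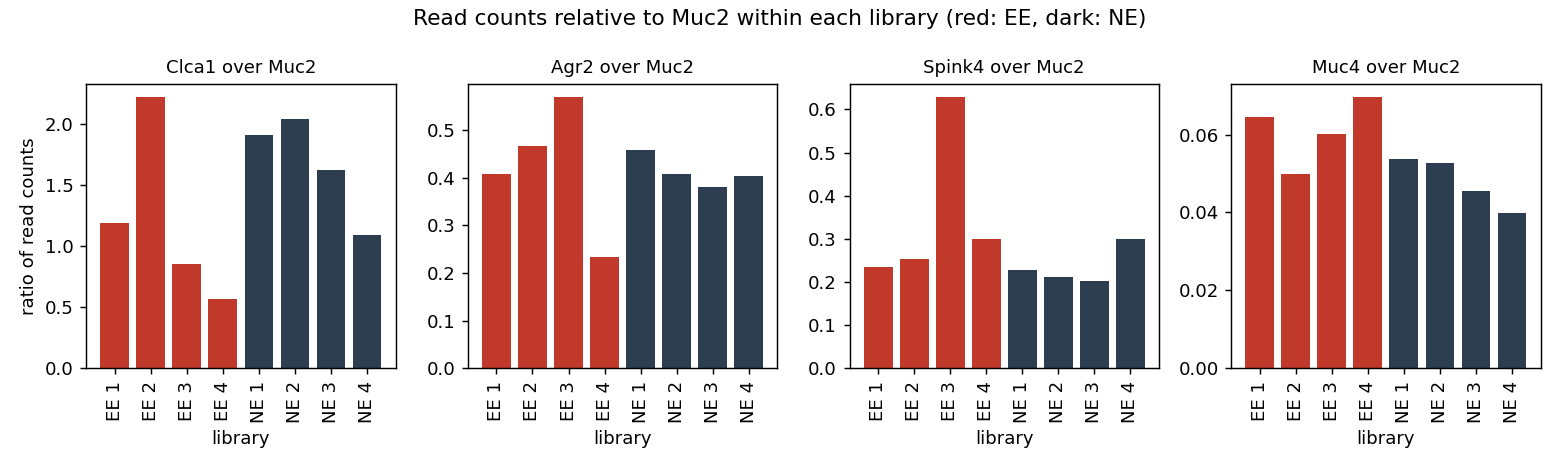
Read counts of Clca1, Agr2, Spink4 and Muc4 divided by those of Muc2 (vertical axes, from 0) in each library, EE in red and NE in dark. Clca1 per Muc2 runs from 0.572 in EE 4 to 2.22 in EE 2, and Spink4 per Muc2 is highest in EE 3 at 0.628.

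Within the groups Clca1 varied together with Klk1 and, mainly through EE 2 and EE 3, with Fcgbp. After each group's mean was subtracted from log2 CPM, Pearson's r over the 8 libraries was 0.95 for Clca1 with Klk1, 0.94 for Clca1 with Fcgbp and 0.92 for Zg16 with Agr2. All genes of a library share its depth and tissue composition, which differed between the 8 libraries, and no test was made on these values. Spink4 ran against Clca1 (−0.46) and Klk1 (−0.52), and over the 36 pairs of the 9 products the median was 0.48, or 0.79 without EE 4. Sycn had a median of 0.41 with the 9 products, its highest value with Muc4 (0.67) and its lowest with Spink4 (−0.63). Ranked by likeness to Sycn among 10536 genes of at least 10 CPM, the 9 products lay between place 1588 (Muc4) and place 8534 (Spink4). In EE 2, Clca1 lay 1.32 and Fcgbp 0.80 above their EE means on the log2 scale, while Sycn deviated from its EE mean by −0.015. In EE 3, Clca1 deviated from its EE mean by −1.02 and Fcgbp by −0.76. In the NE libraries Fcgbp deviated from its NE mean by only −0.11 to 0.095.

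**Figure D4:**
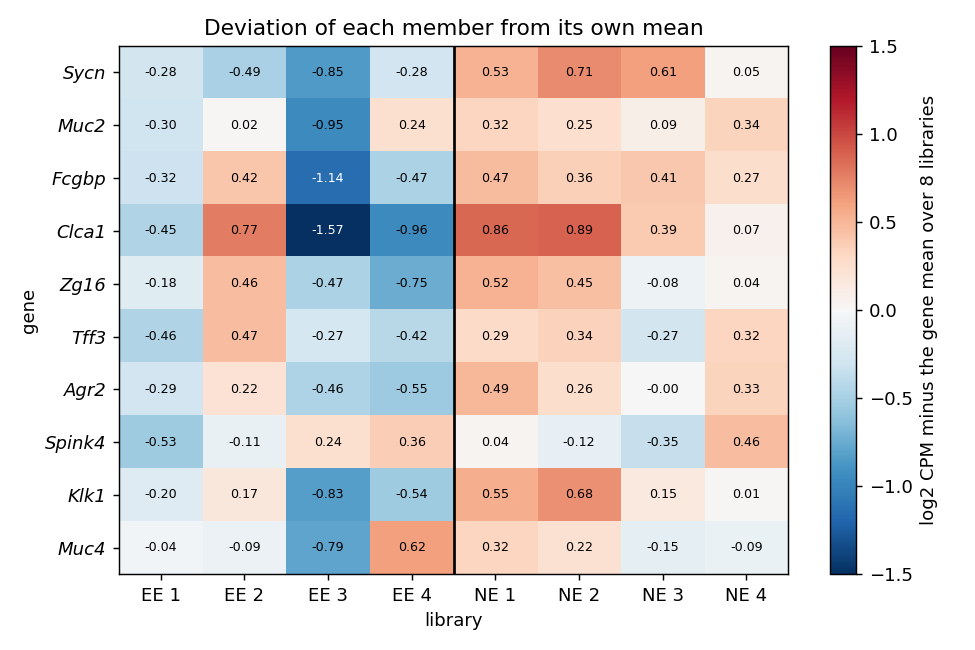
Log2 CPM of each gene minus its mean over 8 libraries, by library, with EE left of the line and NE right of it. EE 2 is above the mean for Clca1 (0.77), and EE 3 is lowest for Clca1 (−1.57); Sycn, which was chosen for its lower EE values, is below its mean in all 4 EE libraries.

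Among 10536 other genes of at least 10 CPM, the 5 with the pattern most like Sycn within the groups were Gm11545 (r = 0.99), Sptbn1, a beta spectrin (0.98), Tmem170b (0.98), Bbx (0.98) and D5Ertd579e (0.97), over 8 libraries. Their own log2 fold changes lay between −0.10 and 0.03, against −0.95 for Sycn. Against the mean of the 9 products the closest were Steap3, a metalloreductase (0.98), Qpct, a glutaminyl cyclase (0.97), Gm15401 (0.97), the membrane traffic GTPase Rab14 (0.97) and Oasl1 (0.94). Steap3, Qpct and Gm15401 had log2 fold changes of −0.55, −0.41 and −0.64. With this many genes and 8 libraries, close matches are to be had for many patterns, and these are given as a description.

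Per length of annotated exon the small secreted peptides led. Tff3 was at 1851 ± 621 CPM per kilobase in EE and 2287 ± 419 in NE, and Spink4 at 2212.5 ± 576 in EE and 2225 ± 549.84 in NE (SD, n = 4 each). Zg16, Clca1 and Agr2 followed, at 1609.7, 1076 and 999 in EE and 2153, 1969 and 1432 in NE. Neighbours among these 5 overlapped in range in both groups, so their order is not fixed by these libraries. Klk1, Fcgbp and Muc2 formed a lower step, between 429 and 492 in EE and between 627 and 786 in NE, below Agr2 with no overlap. Sycn came next at 217 ± 37.8 in EE and 421 ± 78.9 in NE, below Muc2 without overlap in NE but overlapping Fcgbp in EE. Muc4 was last at 17.3 ± 6.78 in EE and 18.2 ± 2.94 in NE. The repeats of the large mucins are hard to assemble and map, so their values per length are the least certain.

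Syncollin is known mainly from the pancreas, so transcripts of pancreatic acinar cells were read in every library. Of 25 acinar markers chosen for this, 18 had a row and 8 passed the filter on low counts, none of which was called. Among the markers, 9 enzyme genes (Cpa1, Cpb1, Prss2, Try5, Pnlip, Cel, Cela2a, Cela3b and Ctrb1) had 18 to 138 counts in EE 2. In the other 7 libraries their counts were 0 to 6, and 39 of those 63 values were 0. They summed to 649 counts in EE 2 and to 2 to 11 counts in each other library. Pancreatic lipase, Pnlip, had 138 counts in EE 2 and at most 2 elsewhere.

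**Figure D5:**
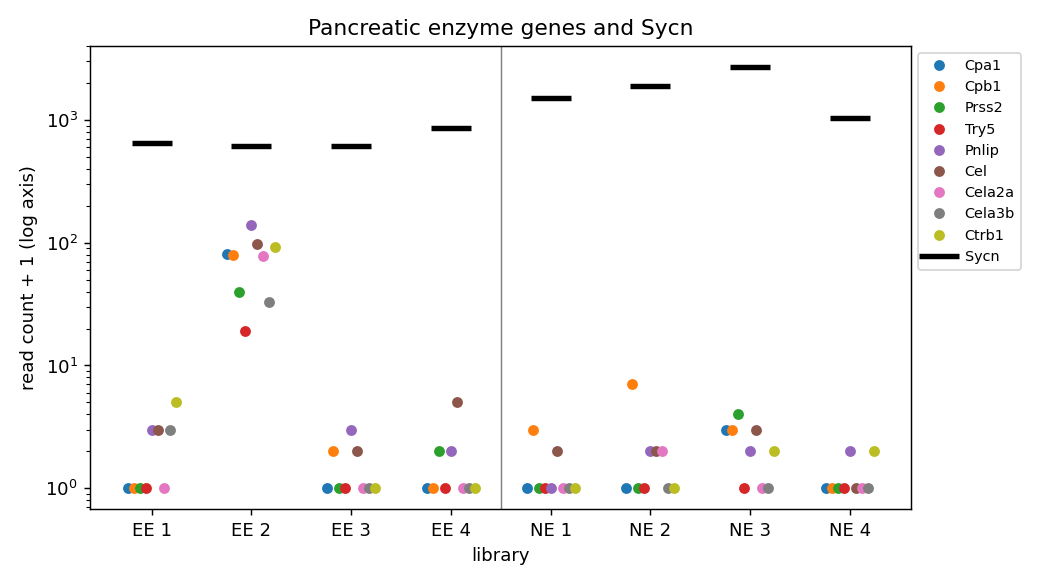
Read counts plus 1 on a log axis for 9 pancreatic enzyme genes (coloured points) and Sycn (black bars) in each library. The enzyme genes reach 18 to 138 counts in EE 2 and 0 to 6 in the other libraries, while Sycn has 610 or more counts in all 8.

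Sycn was present at 610 to 2705 counts in the 7 libraries where these enzymes were at or near 0. EE 2, the library with enzyme counts, had 617 Sycn counts and lay within the EE range. Without EE 2 the Sycn log2 fold change was −0.94, close to the value with it. Of the other acinar markers, Cela1 (1096 to 2011 counts), Pnliprp1 (195 to 909) and Clps (71 to 214) were counted in all libraries. Gp2, a glycoprotein of the zymogen granule membrane, was at 2.96 ± 1.95 CPM in EE and 3.26 ± 1.87 CPM in NE, and Amy2a5 was not analysed here. Summed over the 8 tested markers the level was 325 to 410.2 CPM in EE and 262 to 421 CPM in NE. Whether pancreatic RNA contributes to Zg16 or Klk1 in EE 2 was not tested.

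Other goblet cell secretions stood at lower means in EE as well, without passing the test. Of 9 further secreted products 7 were tested and 0 passed. All 7 had negative log2 fold changes, beside 49.7% of all genes, with a median of −0.52. Among them Itln1 (−1.08) was lower in EE through NE 2 only. It was at 1100.5 CPM in NE 2 and 65.5 to 161 CPM in the other NE libraries, against 96.5 to 242 CPM in EE. Retnlb, an antibacterial resistin-like protein, was at 132 ± 99.3 CPM in EE and 181 ± 90.96 CPM in NE, and its log2 fold change ran from −1.12 without EE 2 to −0.04 without NE 2. Reg4, a lectin of deep crypt secretory cells, was at 337 ± 40.5 CPM in EE and 439 ± 109.6 CPM in NE. Wfdc2, an epithelial antiprotease, was at 129.6 ± 49.9 CPM in EE and 150.5 ± 16.8 CPM in NE. The median of the 7 was −0.90 without EE 2 and −0.35 without EE 4.

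Factors that set and mature goblet cells gave a mixed picture. Of 9 tested 0 passed, and 6 had negative log2 fold changes, with a median of −0.31. Atoh1, which sets the secretory fate, was at 47.8 ± 13.6 CPM in EE and 67.3 ± 12.4 CPM in NE, a log2 fold change of −0.50 (SE 0.21). Spdef, which drives goblet cell maturation, was at 51.7 ± 12.5 CPM in EE and 68.5 ± 10.3 CPM in NE, and Klf4, a factor of goblet cell differentiation, at 229 ± 73.8 CPM in EE and 284 ± 62.1 CPM in NE. Foxa3 was at 82.5 ± 18.7 CPM in EE and 87.4 ± 2.07 CPM in NE and Creb3l1, a factor of secretory capacity, at 77.2 ± 26.7 CPM in EE and 74.8 ± 13.2 CPM in NE. Both were near 0, with log2 fold changes of −0.08 for Foxa3 and 0.04 for Creb3l1, and their sign turned when 1 library was left out (Foxa3 0.0335 without EE 1, Creb3l1 −0.15 without EE 4). Scaled by epithelial genes Foxa3 was at 0.16, below the median of 0.20 that all genes had on that scale. Foxa1 was at 80.3 ± 16.4 CPM in EE and 61.3 ± 4.26 CPM in NE, a log2 fold change of 0.39 (SE 0.15). Of the 9 factors 1, Creb3l4, lay lower in every EE library than in every NE library, beside 2.02% of all genes. Its log2 fold change was −0.42 (SE 0.14). Foxa1 and Creb3l4 were named after their values were seen.

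Of 13 tested genes of mucin folding and glycosylation 0 passed, and 11 had negative log2 fold changes, with a median of −0.26. Xbp1, the transcription factor of the unfolded protein response, was at 256, 299, 245 and 254 CPM in EE and 329, 313, 305 and 347 CPM in NE, and the groups did not overlap. Its log2 fold change was −0.30 (SE 0.12, edgeR adjusted p = 0.520). Of the 13 genes 2 lay lower in every EE library than in every NE library, beside 2.02% of all genes, and 1 lay higher, beside 2.87% of all genes. Fut2, a fucosyltransferase, was the other lower one, at 169 ± 14.8 CPM in EE and 202 ± 22.4 CPM in NE. Agr3, a relative of Agr2, was the higher one, at 2.13 ± 0.306 CPM in EE and 1.29 ± 0.264 CPM in NE. At such low levels its separation rests on few counts per library. Fut2 and Agr3 were named after their values were seen. Ern2, the goblet cell sensor of that response, was at 87.5 ± 26.0 CPM in EE and 102 ± 10.1 CPM in NE. Gcnt3, which branches mucin sugars, was at 314 ± 141 CPM in EE and 453 ± 81.9 CPM in NE. St6galnac1, a sialyltransferase of mucins, fell below the filter, with 1, 0, 60 and 105 counts in EE 1 to EE 4 and 1, 0, 1 and 0 counts in NE 1 to NE 4.

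Release and membrane mucins completed the list. Of 10 genes of granule exocytosis 0 passed and 9 had negative log2 fold changes, with a median of −0.29 that was −0.18 without EE 4. Vamp8, the granule SNARE, was at 130.2 ± 19.2 CPM in EE and 153 ± 8.66 CPM in NE, and Nlrp6, an inflammasome sensor that triggers mucus release, at 88.6 ± 29.3 CPM in EE and 127 ± 24.4 CPM in NE. Sytl2, a Rab27 effector, was at 128 ± 36.3 CPM in EE and 139 ± 13.9 CPM in NE, a log2 fold change of −0.12 that turned to 0.0714 without EE 3. Scaled by epithelial genes Sytl2 was at 0.0285, below the median of all genes. Of 6 further mucins tested 0 passed and 2 had negative log2 fold changes, with a median of 0.16 that was 0.26 without EE 2 and −0.17 without EE 4. Muc13 and Muc3, membrane mucins of the brush border, were at 1668 ± 288 and 631 ± 250.4 CPM in EE and at 1959 ± 266 and 756 ± 118 CPM in NE. Muc1 was at 28.1 ± 12.4 CPM in EE and 20.95 ± 6.32 CPM in NE.

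The relatives of Clca1 in the same gene family showed smaller differences. Clca3b was at 375 ± 72.9 CPM in EE and 465 ± 91.1 CPM in NE, a log2 fold change of −0.31 (SE 0.19). Clca4a, at 163 ± 105.96 CPM in EE and 165 ± 26.6 CPM in NE, and Clca4b, at 239 ± 33.8 CPM in EE and 216 ± 91.9 CPM in NE, differed by −0.02 (SE 0.38) and 0.15 (SE 0.31) on the log2 scale. These 3 were named after their values were seen, and their differences from Clca1 were not tested.

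Markers of other cells also differed between libraries, and none passed the edgeR test. All 11 smooth muscle genes had negative log2 fold changes, with summed levels of 699 to 4473 CPM in EE and 3577 to 5773 CPM in NE. Myh11, smooth muscle myosin, was at 948, 938, 448 and 118 CPM in EE 1 to EE 4 and at 853 to 1345 CPM in NE. Of 12 genes of absorptive colonocytes 11 had negative log2 fold changes, with summed levels of 7176 to 18961 CPM in EE and 13130 to 20029 CPM in NE. Krt20, a keratin of surface cells, was at 710.2, 552, 212 and 263 CPM in EE 1 to EE 4 and at 453 to 702 CPM in NE. EE 3 and EE 4 were thus low in surface colonocyte genes as well as in Clca1, Agr2 and Klk1. All 7 tested genes of hormone cells had negative log2 fold changes, and Chga, a granin of these cells, was at 30.1 ± 12.4 CPM in EE and 49.9 ± 9.79 CPM in NE. The 6 tested plasma cell genes went both ways, 4 with negative and 2 with positive log2 fold changes, and their summed levels were 792 to 3113 CPM in EE and 2401.5 to 3980 CPM in NE. Igha of IgA plasma cells was at 971 ± 595 CPM in EE and 1926 ± 381 CPM in NE. Sdc1, a syndecan that epithelial cells also make, was at 465 ± 39.8 CPM in EE and 415 ± 21.8 CPM in NE. It was higher in every EE library than in every NE library, beside 2.87% of all genes tested. Of the colonocyte genes, Slc37a2 was lower in every EE library than in every NE library, beside 2.02% of all genes tested. Its log2 fold change was −1.05 (SE 0.27). Sdc1 and Slc37a2 were named after their values were seen. Median log2 fold changes were −0.75 for smooth muscle, −0.46 for colonocyte, −0.67 for hormone cell and −0.63 for plasma cell genes. The median of the 9 goblet cell products was −0.43, while the epithelial genes were at −0.13 and Paneth-type markers at 0.22. The part of these other cells in the goblet cell values was not tested.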

How the data were processed

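Ribosomal RNA-depleted, stranded libraries were read as single ends of 50 bases, per the labels' protocols. The submitters' processing notes name Novoalign 2.08.01, DESeq 1.14.0 and build mm10. The sources used here do not give the counting program, the annotation or the strand setting. The authors deposited 1 table of raw read counts per gene for 8 libraries, with their own log2 fold change and adjusted p-value (FDR), per the file headers. The smallest row total was 12 counts.

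The count table was fitted with edgeR 4.0.16 in R 4.3.3. After filterByExpr, 14311 of 16130 genes entered a robust quasi-likelihood fit of EE against NE with TMM scaling and no covariate, and p-values were adjusted over all of them (Benjamini-Hochberg, 0.05). CPM are relative to library sizes after TMM scaling, with a prior count of 2 on the log2 scale. Standard errors (SE) were taken as the absolute log2 fold change over the root of the F statistic. Low genes are limited by depth, and edgeR's common biological variation coefficient came to 0.219. Exon lengths are the union of exons in GENCODE M21. The tests were checked on simulated counts drawn independently for each gene, so that check holds no shift shared by many genes of a library.

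The genes, lists and the rule for named genes (the 10 genes, a fixed set of goblet cell genes and markers named whatever their values, and the 5 closest patterns) were chosen with earlier results of these data known. The Clca relatives, and the acinar genes beyond Cpa1, Pnlip, Ctrb1 and Gp2, were named after their values were seen, as were the genes the text marks so. Alternatives were DESeq2 1.42.0, limma-voom (limma 3.58.1), RLE and upper-quartile scaling, scaling by 14 epithelial genes, other filters, a threshold of 0.1, the replicate number as a block and each library left out. Leaving out EE 2 and EE 4 together was chosen after seeing the data.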

Additional observations from a re-analysis of the deposited data

Results flagged for a closer look

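Within groups of 4, Tff3 had 2 libraries far from the other 3. It stood at 1367.5 CPM in EE 2, against 721 to 821 CPM in the other EE libraries, and at 818.75 CPM in NE 3, against 1206 to 1254 CPM in the other NE libraries. Of the 20 groups examined this way (10 genes in EE and in NE), chance alone marks about 1 in 20.

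Pancreatic enzyme genes that were too low for the test had counts in EE 2 far above all NE libraries: 138 for Pnlip, 96 for Cel, 91 for Ctrb1, 80 for Cpa1, 78 for Cpb1, 77 for Cela2a, 39 for Prss2, 32 for Cela3b and 18 for Try5. The highest NE count of any of them was 6. St6galnac1, also below the filter, had 60 counts in EE 3 and 105 in EE 4, against 0 or 1 in the other 6 libraries.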

How the results depend on the processing

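The median log2 fold change of the 9 goblet cell products (−0.43) kept its sign under every alternative run, from −0.71 without EE 2 to −0.33 without EE 3 when 1 library was left out, −0.65 with EE 2 and EE 4 left out together, −0.27 when scaled by epithelial genes and −0.50 with the replicate block. Replicate numbers did not pair the libraries: the correlation of same-numbered deviations was 0.25, 0.01, −0.18 and −0.04 for numbers 1 to 4. The block left the count of called genes at 0. That count was 14 with DESeq2, which gave no adjusted p for 1119 genes, 0 to 1 when 1 library was left out (1 without EE 2), and 0 at a threshold of 0.1. Sycn ran from −1.08 to −0.77.

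Scaling by epithelial genes moved the median of all genes to 0.20, and Spink4 was then at 0.23, Muc4 at 0.12, Foxa3 at 0.16 and Sytl2 at 0.0285, the last 3 below that median. The sign of small differences also turned in other settings, and the cause was not tested. Leaving out 1 library gave ranges of −0.13 to 0.17 for Spink4, −0.36 to 0.13 for Muc4, −0.18 to 0.0335 for Foxa3, −0.15 to 0.26 for Creb3l1, −0.38 to 0.0086 for Muc3 and −0.24 to 0.0714 for Sytl2. Creb3l1 was at −0.0171 with limma-voom, −0.0137 with the replicate block and −0.20 with EE 2 and EE 4 left out together.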

Other observations

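Paneth-type transcripts, which are defensive secretions of the crypt base, mostly did not share the sign of the goblet cell products. Of 6 tested markers 0 passed, and 5 had positive log2 fold changes, with a median of 0.22 over the 6. The 5 ran from 0.12 (SE 0.49) to 0.46 (SE 0.45). Mptx2 was the negative one, at −2.10 (SE 1.19). Their summed level was 333 to 1140.3 CPM in EE and 335 to 1183 CPM in NE, so the groups covered the same range. Mptx2 had 4, 10, 64 and 187 counts in EE 1 to EE 4 and 6, 828, 636 and 31 counts in NE 1 to NE 4. Itln1, the lectin intelectin counted above with the goblet cell secretions, had 7678 counts in NE 2. The other NE libraries had 415 to 971 and the EE libraries 504 to 1599. Both were named after their values were seen.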
